A study of Mus musculus with 10 samples.

Results

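Macrophages of the state named MHC2_low were described across 10 single-cell libraries of the mouse hippocampus. The authors' annotation puts 372 cells in this state, out of 2899 macrophages and 68914 annotated cells, and all 372 were taken by their class (Macrophage) and their fine macrophage state (MHC2_low). Each library came from a male wild-type C57BL/6 mouse, 11 weeks old, whose hippocampi were taken 3 days after injection into both sides. FL-NfL libraries (n = 3) followed an injection of the full-length protein neurofilament light chain at 1 mg/ml, CC-NfL libraries (n = 3) one of its coiled-coil portion at 1 mg/ml, and Vehicle libraries (n = 4) one without either. Neurofilament light chain is a structural protein of axons, and the study asked how cells of the hippocampus respond to it from outside. Cells were dissociated with actinomycin D, which blocks transcription during the procedure, and sorted as live. All groups, Vehicle included, were injected, and no group received an unrelated protein.

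Macrophages of the brain borders sit in the meninges, around vessels and in the choroid plexus, apart from the microglia of the tissue itself. They are commonly divided by how much major histocompatibility complex class II (MHC class II) they carry, the molecules that present antigen to helper T cells. MHC2-low border macrophages typically express Mrc1, a mannose receptor, Lyve1, a hyaluronan receptor, Cd163, a receptor for haemoglobin bound to haptoglobin, and Folr2, a folate receptor, and are largely kept up without input from the blood. MHC2-high ones are more often replaced by monocytes. The values analysed here are cell names and map positions, with no expression of any gene, so none of these markers could be checked and the name MHC2_low is the authors'.

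The name could be set against the annotation's own structure and the maps. The 372 cells formed 1 macrophage cluster, number 8 of the macrophage clustering, and the fine and the coarse state were both MHC2_low in all 372. The other fine states were MHC2_high_1, MHC2_high_2, Activated_1, Activated_2, Activated_3, Proliferating and Granulocytes, and 13 macrophages carried no state. The state named Granulocytes held 56 cells, although granulocytes are not macrophages, and it was counted among the macrophages as the authors did. In the clustering of all cells the MHC2_low cells lay in cluster 32, which held all 2899 macrophages. No barcode was shared between MHC2_low cells of 2 libraries, and 10 of their barcodes also occurred in another library, in none of them as a macrophage.

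On the authors' t-SNE map of the macrophages, a layout in which cells of like expression lie close together, MHC2_low cells formed an island of their own. For each cell the 15 nearest other macrophages were taken, its own library included, and on average 97.1% of them were MHC2_low. In the other 6 states except Granulocytes (100%), that share of own-state neighbours was 83.5% to 93.7%. All 15 neighbours were MHC2_low for 322 of the 372 cells (86.6%), and 6 cells (1.61%) had fewer than 50% of their neighbours in their own state. Of all neighbours, 1.63% were MHC2_high_1, 0.717% Proliferating and 0.556% Activated_1. The nearest state centres were those of Proliferating, at 9.98 map units, and Granulocytes, at 11.8, with MHC2_high_1 at 18.8, Activated_1 at 24.5, MHC2_high_2 at 26.1, Activated_2 at 35.7 and Activated_3 at 46.0. A t-SNE layout does not keep the distances between islands, so this order is no ranking of the states by likeness. No neighbour of an MHC2_low cell was of the state Granulocytes. The median MHC2_low cell lay 3.39 map units from its own centre. In the other direction, 9 cells of other states (6 MHC2_high_1, 3 Activated_1) had at least 50% MHC2_low neighbours. On the map of all cells, every neighbour of the 372 cells was a macrophage, and 94.96% were MHC2_low. State names and map positions both derive from the cells' expression, so these shares describe the annotation and are no independent check of it.

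**Figure D1:**
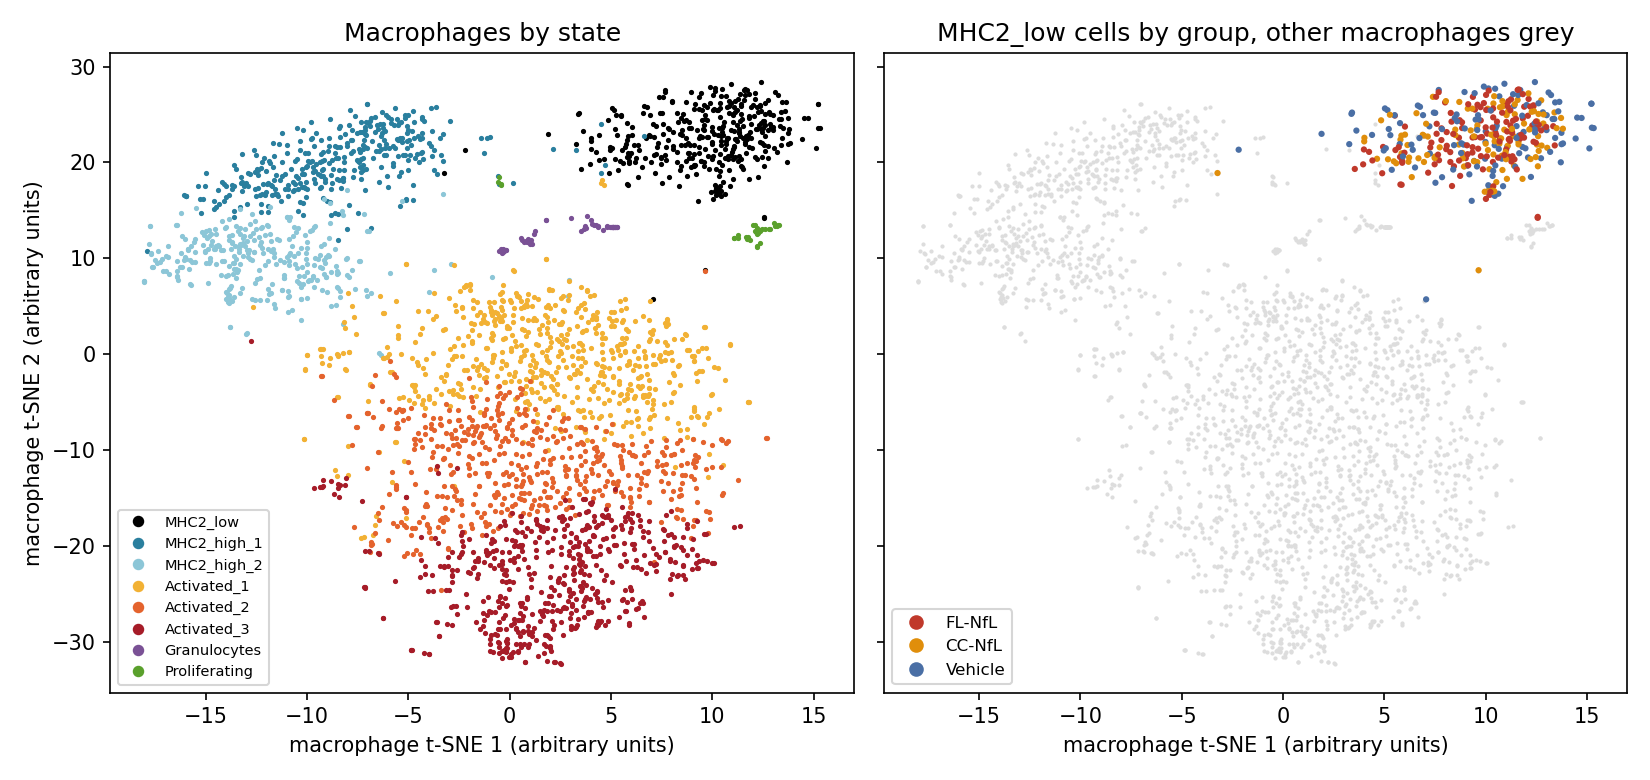
Positions of macrophages on the authors' macrophage t-SNE map (both axes in arbitrary units), 1 point per cell. The left panel is coloured by fine state, and the right panel shows the 372 MHC2_low cells by group over the other macrophages in grey. Nearly all MHC2_low cells lie in 1 island at the upper right, in which FL-NfL, CC-NfL and Vehicle cells are mixed.

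The libraries held 52 to 822 macrophages each, and 3150 to 6025 annotated cells in batch b1 and 8800 to 14141 in batch b2. Replicates 1 and 2 of every group belong to b1 and the others to b2, per the labels. The share of barcodes that carried an annotation was lower in b1 (28.7% to 58.0%) than in b2 (79.3% to 82.7%), and was lowest in FL-NfL replicate 1. MHC2_low cells numbered 39, 28 and 70 in the FL-NfL libraries, 18, 47 and 46 in the CC-NfL libraries, and 24, 26, 46 and 28 in the Vehicle libraries, in replicate order. These counts overlapped between all groups, and they are the depth behind every value given here.

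The question for each protein was first whether MHC2_low made up the same part of the macrophages as after Vehicle. It made up less after either protein. MHC2_low cells were 9.68%, 16.2% and 8.78% of the macrophages after FL-NfL, against 38.7%, 50.0%, 30.7% and 30.4% after Vehicle. The highest FL-NfL library lay below the lowest Vehicle library. Means were 11.5% ± 4.04 after FL-NfL (SD, n = 3) and 37.5% ± 9.21 after Vehicle (SD, n = 4), a ratio of 0.308. Exact 95% binomial intervals, which cover counting error only, ended at 22.5% at most in an FL-NfL library and began at 21.3% at the lowest in a Vehicle library. The log2 odds ratio from limma, with group and batch as terms, was -2.41 (SE 0.42, 95% interval -3.38 to -1.44, adjusted p = 0.0012). An exact two-sided permutation test of the percentages gave p = 0.0286 (adjusted over 4 contrasts 0.0381), and 0.0556 within batch, each the smallest p these libraries allow. In b1 the mean was 12.9% after FL-NfL and 44.4% after Vehicle, and in b2 it was 8.78% after FL-NfL (1 library) and 30.6% after Vehicle.

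After CC-NfL, MHC2_low cells were 21.4%, 17.8% and 5.60% of the macrophages, against the same Vehicle libraries. All 3 values lay below every Vehicle library, and CC-NfL replicate 3 was the lowest of all 10 libraries. Exact 95% binomial intervals overlapped, since that of CC-NfL replicate 1 ran from 13.2% to 31.7%. Those of Vehicle replicates 1, 3 and 4 began at 26.6%, 23.4% and 21.3%, and that of replicate 2 at 35.8%. The CC-NfL mean was 14.9% ± 8.29 (SD, n = 3), 0.399 times that of Vehicle. The log2 odds ratio from limma was -2.14 (SE 0.42, 95% interval -3.11 to -1.16, adjusted p = 0.0027), and the exact permutation p was again 0.0286 (adjusted 0.0381), and 0.0556 within batch. In b1 the mean was 19.6% after CC-NfL and 44.4% after Vehicle, and in b2 it was 5.60% after CC-NfL (1 library) and 30.6% after Vehicle. Averaged over the 2 proteins, limma gave -2.27 (SE 0.36, adjusted p = 0.0006), and exact permutation gave p = 0.00476 (adjusted 0.0190) and 0.0111 within batch. In b1 alone, with 2 libraries a group, neither protein passed the test against Vehicle (log2 odds ratio -2.45 after FL-NfL, adjusted p = 0.0630, and -1.69 after CC-NfL, adjusted p = 0.0940), while the mean of both did (-2.07, adjusted p = 0.0427).

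That share has to be read against its fellow states, since the states of 1 library sum to a whole. Of the 6 states averaging 10 cells or more in a library, limma called 5 after FL-NfL (83.3%), of which 4 were higher (66.7%) and MHC2_low alone was lower (16.7%). It called all 6 (100%) after CC-NfL, MHC2_low and MHC2_high_1 being lower (33.3%) and MHC2_high_2 just under the threshold (adjusted p = 0.049998). Those counts were unsteady: without FL-NfL replicate 3 the first was 2, without FL-NfL replicate 1 or Vehicle replicate 1 it was 3, and without CC-NfL replicate 3 the second was 3. In b1 alone both were 0, and without the 3 libraries numbered 1 both were 2. MHC2_high_1 after FL-NfL had a log2 odds ratio of -1.998 and missed the threshold in limma (adjusted p = 0.0700), but passed it in a quasi-binomial model (adjusted p = 0.0291). Beside MHC2_low, the 3 activated states held 253 of 403, 69 of 173 and 562 of 797 macrophages in FL-NfL libraries, 44 of 84, 124 of 264 and 656 of 822 in CC-NfL libraries, and 5 of 62, 12 of 52, 15 of 150 and 7 of 92 in Vehicle libraries. Replicate 3 of each protein gave most of these cells, and in FL-NfL replicate 2 the single state with the most cells was MHC2_high_1 (50).

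**Figure D2:**
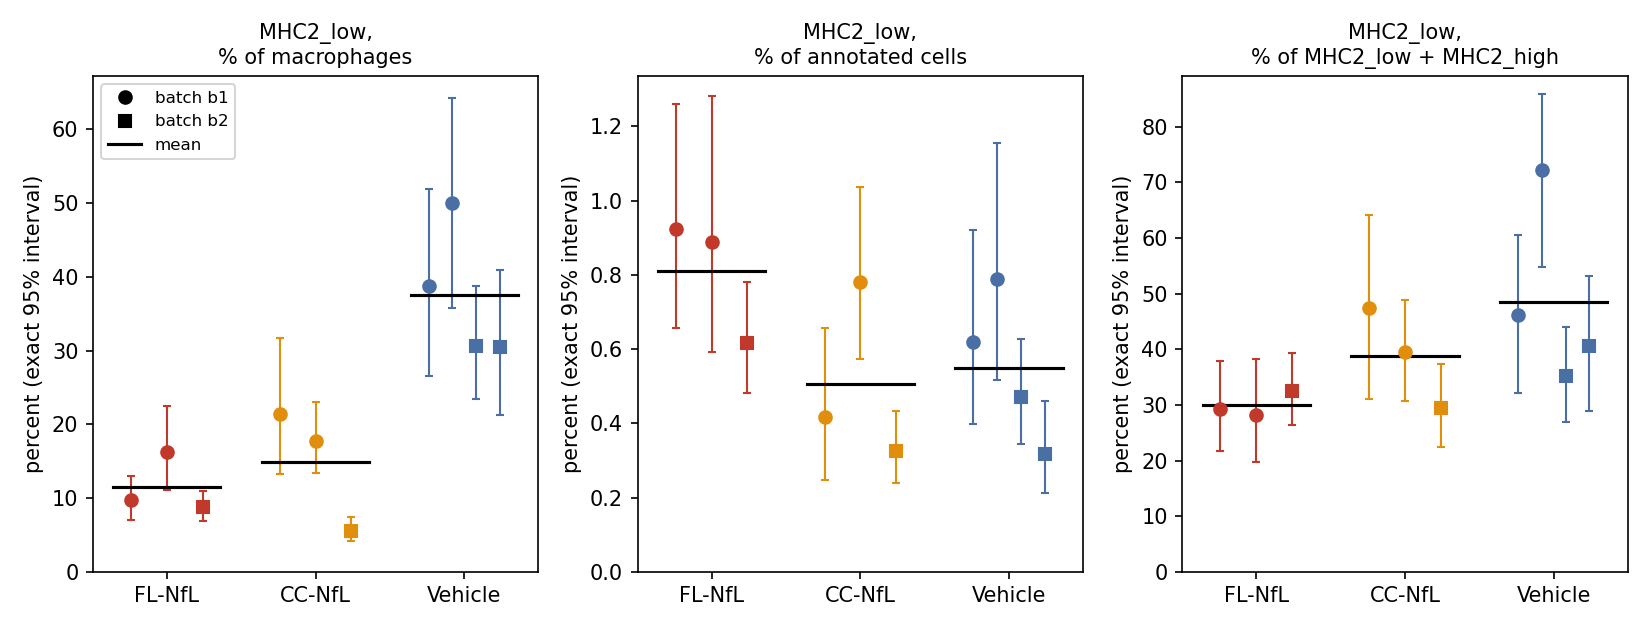
MHC2_low cells as a percentage of the macrophages (left), of all annotated cells (middle) and of MHC2_low plus MHC2_high cells (right) of each library (vertical axes, percent), for FL-NfL, CC-NfL and Vehicle. Points are libraries (circles b1, squares b2) with exact 95% binomial intervals, and horizontal bars are group means. All 6 NfL libraries lie below the 4 Vehicle libraries as a share of macrophages, and the groups overlap as a share of annotated cells.

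Set against all annotated cells, MHC2_low did not pass the test after either protein. The cells were 0.924%, 0.889% and 0.618% of the annotated cells in FL-NfL libraries, 0.416%, 0.780% and 0.325% in CC-NfL libraries, and 0.620%, 0.790%, 0.471% and 0.318% in Vehicle libraries. FL-NfL replicates 1 and 2 lay above all Vehicle libraries, FL-NfL replicate 3 lay within them, and so did all CC-NfL libraries. Within its own batch, every FL-NfL library lay above every Vehicle library. Means were 0.810% ± 0.168 after FL-NfL (SD, n = 3), 0.507% ± 0.241 after CC-NfL (SD, n = 3) and 0.550% ± 0.202 after Vehicle (SD, n = 4). The log2 odds ratio from limma was 0.48 for FL-NfL against Vehicle (SE 0.36, 95% interval -0.34 to 1.31, adjusted p = 0.646) and -0.27 for CC-NfL against Vehicle (SE 0.36, interval -1.10 to 0.56, adjusted p = 0.717). For the mean of both proteins it was 0.11 (SE 0.31, interval -0.59 to 0.81, adjusted p = 0.907). These intervals are the sizes of change, either way, that the 10 libraries leave possible. Tissue where border macrophages sit was recovered unevenly, as the class Choroid ran from 2.87% to 15.4% of annotated cells over the libraries. Whether the MHC2_low share moved with it was not tested.

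Exact permutation tests of the same percentages gave p = 0.143 for FL-NfL and 0.800 for CC-NfL against Vehicle, and 0.0556 for FL-NfL and 0.833 for CC-NfL within batch. That 0.0556 is the smallest p the within-batch test allows, so it could not pass 0.05. Within b1 the mean was 0.907% after FL-NfL, 0.598% after CC-NfL and 0.705% after Vehicle. Within b2 it was 0.618% after FL-NfL (1 library), 0.325% after CC-NfL (1 library) and 0.395% after Vehicle. In that fit of 21 populations, limma called 5 after FL-NfL (23.8%), 4 after CC-NfL (19.0%) and 5 for the mean of both (23.8%), and MHC2_low was among none of them. Without CC-NfL replicate 3 the count for CC-NfL was 0, without Vehicle replicate 1 it was 1, and the quasi-binomial model called 3, 0 and 3. The macrophages other than MHC2_low were 6.55% ± 2.01 of annotated cells after FL-NfL, 3.54% ± 1.98 after CC-NfL and 0.891% ± 0.159 after Vehicle. For the activated states the means were 4.38% ± 1.97 after FL-NfL, 2.57% ± 1.86 after CC-NfL and 0.182% ± 0.126 after Vehicle.

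The MHC2_high states, the nearest by name, did not share 1 pattern. MHC2_high_2 was 0.878% ± 0.183 of annotated cells after FL-NfL, 0.481% ± 0.311 after CC-NfL and 0.0713% ± 0.0436 after Vehicle, and rose after both proteins (log2 odds ratio 3.67, adjusted p = 0.0036 after FL-NfL, and 2.53, adjusted p = 0.0254 after CC-NfL, limma). The call after CC-NfL ended without Vehicle replicate 1 or 4 or CC-NfL replicate 2 or 3 (adjusted p up to 0.173) and in the quasi-binomial model (adjusted p = 0.0508), and in b1 alone both calls ended (adjusted p = 0.0806 after FL-NfL and 0.405 after CC-NfL). MHC2_high_1 was 1.04% ± 0.660 after FL-NfL, 0.330% ± 0.115 after CC-NfL and 0.520% ± 0.272 after Vehicle. Like MHC2_low it passed the test after neither protein (0.79, adjusted p = 0.656, and -0.62, adjusted p = 0.717). Over the 10 libraries, whatever their group, the MHC2_low share of annotated cells ran from 0.318% to 0.924%, a 2.90-fold range with a coefficient of variation of 36.8%. That was the fourth smallest variation of 24 populations, and among the other macrophage states with a name it was 75.1% to 115%. Part of the variation of rare populations is counting error.

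**Figure D3:**
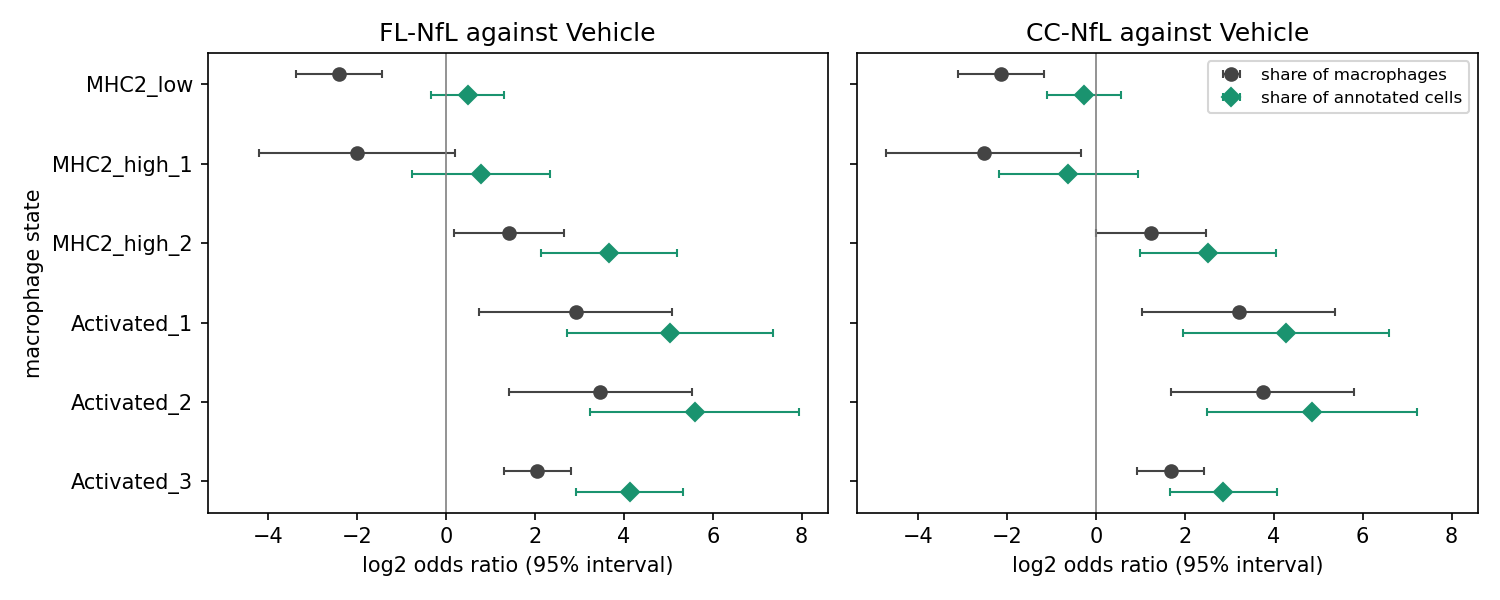
Log2 odds ratio from limma of each macrophage state (horizontal axes) for FL-NfL (left) and CC-NfL (right) against Vehicle, as a share of macrophages (circles) and of annotated cells (diamonds), with 95% intervals. MHC2_low lies below 0 as a share of macrophages (-2.41 for FL-NfL, -2.14 for CC-NfL). Its intervals span 0 as a share of annotated cells (0.48 for FL-NfL, -0.27 for CC-NfL), while the activated states lie above 0 on both scales.

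A share of a total moves with everything else in that total, so MHC2_low was also counted against single populations. Per 100 cells of the activated states there were 15.4, 40.6 and 12.5 MHC2_low cells in FL-NfL libraries, 40.9, 37.9 and 7.01 in CC-NfL libraries, and 480, 217, 307 and 400 in Vehicle libraries. Activated macrophages thus outnumbered MHC2_low in all 6 NfL libraries and in no Vehicle library. Against each activated state the log2 ratio of MHC2_low was lower after FL-NfL than after Vehicle, with differences of -5.09 for Activated_2 (SE 0.93, adjusted p = 0.0030), -4.54 for Activated_1 (SE 0.94, adjusted p = 0.0052) and -3.62 for Activated_3 (SE 0.47, adjusted p = 0.0007, limma). After CC-NfL these differences in log2 ratio were -5.12 (adjusted p = 0.0032), -4.53 (adjusted p = 0.0052) and -3.13 (adjusted p = 0.0022). With at most 15 activated cells in any Vehicle library, these sizes depend on the 0.5 added to each count. For Activated_1 the CC-NfL call did not outlast the omission of CC-NfL replicate 3 (-3.58, adjusted p = 0.0571). In b1 alone no ratio named here passed the test for either protein, with the lowest adjusted p at 0.0601 (Activated_3 after FL-NfL, -3.28).

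The ratio of MHC2_low to MHC2_high_2 fell as well, with a difference in log2 ratio of -3.17 after FL-NfL (SE 0.51, adjusted p = 0.0020) and of -2.79 after CC-NfL (adjusted p = 0.0032, limma). Against the class named other immune cells, there were 60.0, 70.0 and 41.9 MHC2_low cells per 100 in FL-NfL libraries, 138, 77.0 and 25.7 in CC-NfL libraries, and 200, 186, 192 and 96.6 in Vehicle libraries. The FL-NfL libraries lay below all Vehicle libraries and the CC-NfL libraries overlapped them. The log2 ratio differed by -1.67 after FL-NfL (SE 0.46, adjusted p = 0.0243) and by -1.46 after CC-NfL (adjusted p = 0.0485, limma). These calls rest on few libraries: the FL-NfL call ended without FL-NfL replicate 1, 2 or 3 (adjusted p up to 0.0808), and the CC-NfL call ended in 9 of the 10 fits that left out 1 library, all but that without CC-NfL replicate 1 (adjusted p up to 0.393, with -0.91 without CC-NfL replicate 3). Both also ended without batch as a term (adjusted p = 0.142 after FL-NfL and 0.252 after CC-NfL). With the 3 activated states and MHC2_high_2 these made 5 of 20 populations called lower (25.0%), in each protein against Vehicle and for the mean of both, and none was called higher. Without CC-NfL replicate 3 the count for CC-NfL was 3. The same Vehicle libraries serve both comparisons.

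The ratio of MHC2_low to MHC2_high_1 showed no detectable difference. There were 75.0, 56.0 and 200 MHC2_low cells per 100 MHC2_high_1 cells in FL-NfL libraries, 129, 174 and 148 in CC-NfL libraries, and 88.9, 433, 60.5 and 75.7 in Vehicle libraries. The groups overlapped, and Vehicle replicate 2 stood far above its group. The log2 ratio differed by -0.30 after FL-NfL (95% interval -1.96 to 1.36, adjusted p = 0.729) and by 0.35 after CC-NfL (interval -1.31 to 2.01, adjusted p = 0.822, limma), intervals wide enough to hold a 2-fold change either way.

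Microglia, the myeloid cells that live in the tissue itself, were another population to set it against. Per 1000 microglia there were 28.5, 23.2 and 24.8 MHC2_low cells in FL-NfL libraries, 12.6, 21.2 and 11.1 in CC-NfL libraries, and 25.6, 21.1, 13.9 and 9.41 in Vehicle libraries. Vehicle overlapped both proteins, and all 3 FL-NfL libraries lay above all 3 CC-NfL libraries. The log2 ratio differed by 0.53 after FL-NfL (SE 0.38, 95% interval -0.34 to 1.40, adjusted p = 0.397) and by -0.28 after CC-NfL (interval -1.15 to 0.59, adjusted p = 0.822, limma). Per 1000 homeostatic microglia, the unactivated state by its name, there were 42.6 ± 8.76 after FL-NfL, 30.8 ± 16.4 after CC-NfL and 23.2 ± 8.13 after Vehicle. The 3 FL-NfL libraries (51.9, 41.4 and 34.5) lay above all 4 Vehicle libraries (29.4, 30.6, 19.3 and 13.7), a description that was not tested. Both counts use the same MHC2_low cells and differ only in the microglia they are divided by. Per 1000 microglia the mean was 1.46 times Vehicle after FL-NfL and 0.857 times after CC-NfL. Per 1000 homeostatic microglia it was 1.83 and 1.32 times, so the higher values there are no sign of more MHC2_low cells.

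The remaining 13 populations of cells that are no macrophages or immune cells gave no call. After FL-NfL the largest log2 ratios against Vehicle in limma were those to Reelin neurons (1.37, SE 1.55, adjusted p = 0.528) and VLMC (1.34, SE 1.23, adjusted p = 0.468). Next came pericytes (1.11, adjusted p = 0.0818), the contractile cells on capillaries. VLMC are a class of the meninges and vessel walls. FL-NfL replicate 1 held 1 Reelin neuron and 0 VLMC, and the ratios to these classes changed sign without the libraries numbered 1. After CC-NfL the largest log2 ratios were those to BMEC (0.79, adjusted p = 0.141), ependymal cells (0.61), which line the ventricles, and VECA (0.42). For the mean of both they were VECA (0.74), VSMC and pericytes (0.67 each). The annotation does not spell out these abbreviations.

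**Figure D4:**
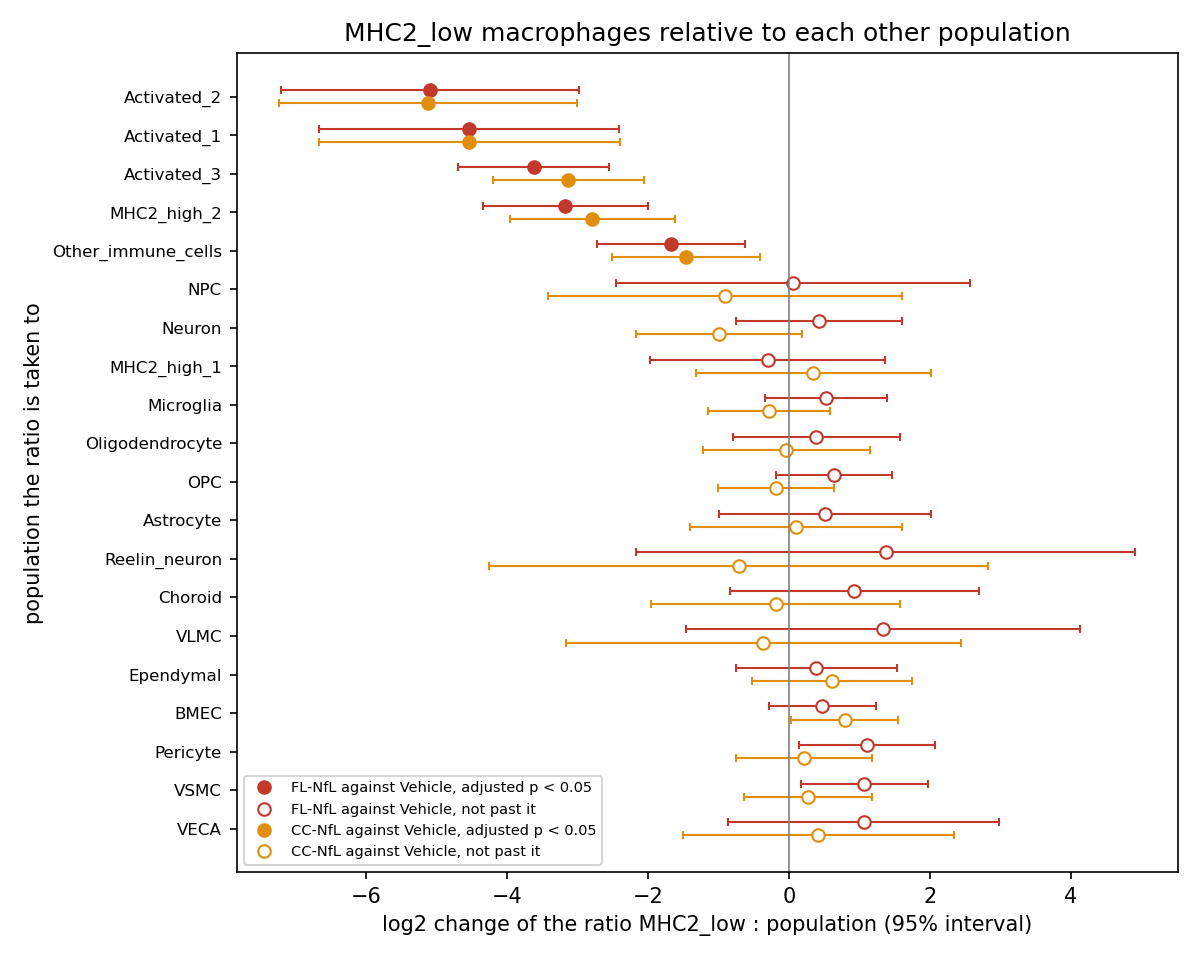
Difference between each protein and Vehicle in the log2 ratio of MHC2_low cells to each of 20 other populations (horizontal axis), with 95% intervals from limma. FL-NfL is drawn above CC-NfL in each row, and filled points passed an adjusted p of 0.05. The lowest values are those to Activated_2 (-5.09 and -5.12), and those to MHC2_high_1 (-0.30 and 0.35) lie near 0.

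Among the macrophages named by MHC class II alone, leaving out the activated, proliferating and granulocyte states, MHC2_low made up 29.3%, 28.3% and 32.6% in FL-NfL libraries, 47.4%, 39.5% and 29.5% in CC-NfL libraries, and 46.2%, 72.2%, 35.1% and 40.6% in Vehicle libraries. The FL-NfL libraries lay below all Vehicle libraries, and 2 of the 3 CC-NfL libraries lay within them. Means were 30.1% ± 2.23 after FL-NfL (SD, n = 3), 38.8% ± 8.96 after CC-NfL (SD, n = 3) and 48.5% ± 16.4 after Vehicle (SD, n = 4). Neither difference from Vehicle passed an exact two-sided permutation test: FL-NfL was lower by 18.5 percentage points (p = 0.0857, adjusted over 4 contrasts 0.171) and CC-NfL by 9.73 (p = 0.486, adjusted 0.486). For both proteins together the difference was -14.1 (permutation p = 0.0714, adjusted 0.171, and 0.0556 within batch). Leaving out 1 library gave -22.9 to -10.6 for FL-NfL and -14.2 to -1.83 for CC-NfL, with the smallest differences without Vehicle replicate 2. Within b1 the means were 28.8% after FL-NfL, 43.4% after CC-NfL and 59.2% after Vehicle. Within b2 they were 32.6% after FL-NfL (1 library), 29.5% after CC-NfL (1 library) and 37.8% after Vehicle.

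FL-NfL and CC-NfL were set against each other at the same concentration by mass and the same day. MHC2_low as a share of macrophages had a log2 odds ratio of -0.27 for FL-NfL against CC-NfL (SE 0.45, 95% interval -1.30 to 0.75, adjusted p = 0.775), and the exact permutation p was 0.600. As a share of annotated cells it was 0.75 (SE 0.38, interval -0.12 to 1.63, adjusted p = 0.358), and exact permutation gave p = 0.200. With 3 libraries against 3, no permutation p can fall under 0.1. FL-NfL exceeded CC-NfL in the batch mean of annotated cells in b1 (0.907% against 0.598%) and in b2 (0.618% against 0.325%, 1 library each). Limma called 0 of the 6 states within macrophages (0 at an unadjusted p under 0.05, and 1, Activated_3, in the quasi-binomial model) and 0 of 21 populations (1 at an unadjusted p under 0.05, none in the quasi-binomial model). Of the 20 ratios to other populations it called 0 as well (1 at an unadjusted p under 0.05, no other tool run). The largest were those to Reelin neurons (2.09, SE 1.64), VLMC (1.70, SE 1.30) and neurons (1.42, adjusted p = 0.367). Those to MHC2_high_1 (-0.65), Activated_3 (-0.50) and MHC2_high_2 (-0.38) were the lowest. The intervals leave room for differences between the proteins that 3 libraries each could not show.

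The map neighbours of MHC2_low cells were compared between groups by their states, here with the 15 nearest macrophages from other libraries only. Shares of own-state neighbours were so near 100% that they leave little room to differ. Averaged over the cells of a library, MHC2_low neighbours made up 95.7% ± 5.68 after FL-NfL, 96.5% ± 3.01 after CC-NfL and 97.8% ± 1.76 after Vehicle. MHC2_high neighbours made up 1.30% ± 1.21 after FL-NfL, 2.80% ± 2.92 after CC-NfL and 1.55% ± 0.719 after Vehicle. Activated neighbours made up 0.587% ± 0.595 after FL-NfL, 0.0483% ± 0.0837 after CC-NfL and 0.603% ± 1.05 after Vehicle. Over these 3 measures and 4 contrasts, 12 exact permutation tests gave p-values of 0.400 or more (adjusted 0.982 or more). Counted with the cell's own library included, 6 cells had under 50% own-state neighbours. They came from FL-NfL replicate 2 (2 cells), CC-NfL replicates 1 and 3 (1 each) and Vehicle replicate 3 (2 cells). The median position of the MHC2_low cells of a library lay 0.243 to 2.08 map units from that of the state, and these positions were not compared between groups. A cell that had left the island would in most cases carry another state name, so these shares cannot count cells that changed state.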

How the data were processed

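RNA of single cells was sequenced from 10 libraries. The submitters' processing notes name Cell Ranger 6.0.1 and the mouse build GRCm38. How cells were filtered, how doublets (droplets with 2 cells) were treated, how cells were clustered and named, and how the maps were made, is not given in the sources used here. No doublet caller was run, since that needs gene counts, so doublets among the MHC2_low cells cannot be told apart. Per barcode, the table deposited by the authors holds names and t-SNE positions (a score with arbitrary units). It has 108266 barcodes, of which 39352 carry no annotation and were left out. The condition and batch it names matched the labels in all 68914 annotated cells.

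Cells were counted per library, and the library was the replicate. Log2 odds and log2 ratios, with 0.5 added to each count, were fitted to group and batch over the 10 libraries with limma 3.58.1 under R 4.3.3. Populations averaging 10 cells or more in a library entered the fit, and p-values were adjusted by Benjamini-Hochberg over them, with 0.05 as the threshold. States of 1 library are not independent, so p-values within macrophages may be too small. Percentages and map neighbours were compared by exact two-sided permutation of libraries, with every split listed in Python 3.11.15. The p-value was the share of splits with an absolute difference of means at least as large. Intervals on single shares are exact (Clopper-Pearson, 95%, scipy 1.17.1). The populations named are MHC2_low, all other macrophage states, microglia and other immune cells, and in the ratio fit those past the threshold with the 3 highest and 3 lowest per contrast. The members, lists and tests were chosen with earlier results of these data known. The scripts were tested on simulated data.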

Additional observations from a re-analysis of the deposited data

Results flagged for a closer look

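Of 22 measures over the 4 Vehicle libraries, 5 had 1 library far from the other 3. The critical value used (Dixon, 95%) marks about 1 in 20 groups by chance, and these measures share libraries and counts, so they are not independent. All macrophages made up 1.05% of annotated cells in Vehicle replicate 4, the lowest of its group. The same library had 96.6 MHC2_low cells per 100 other immune cells, also the lowest. Vehicle replicate 2 had 433 MHC2_low cells per 100 MHC2_high_1 cells, the highest. Vehicle replicate 3 had the lowest share of MHC2_low neighbours on the macrophage map (95.2%) and the highest share of activated neighbours (2.17%). Groups of 3 libraries were not examined in this way.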

How the results depend on the processing

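The lower share of MHC2_low among macrophages passed the test in every fit that left out 1 library: -2.69 to -2.11 for FL-NfL, -2.38 to -1.64 for CC-NfL and -2.48 to -1.996 for both, against Vehicle. In batch b1 alone it did not for FL-NfL (-2.45) or CC-NfL (-1.69). With the replicate number as a block it was -2.37, -2.09 and -2.23, with calls as before, and it left 4, 4 and 5 of the ratios called. Vehicle replicate 4 is the only library with its number, so the block in effect leaves that library out. Its estimates are thus no separate check from the fit without Vehicle replicate 4. The shared numbers were not taken as pairs in the main fits. Of 9 same-numbered pairs, 6 had deviations correlated over 0.1 (all 9 from -0.361 to 0.496). Pairs of libraries with different numbers ran from -0.550 to 0.517, so these correlations do not decide whether the numbers are pairs. Values near 0 changed sign, and so did some larger ratios with wide intervals. For FL-NfL against CC-NfL the share of macrophages was 0.27 without the 3 libraries numbered 1, an alternative chosen after seeing the data, and -0.71 to 0.0501 without 1 library. For both proteins the share of annotated cells was -0.00129 with the replicate block and -0.00129 to 0.21 without 1 library. Ratios called numbered 0, 0 and 2 in b1 alone (FL-NfL, CC-NfL, both), 2 for FL-NfL without the libraries numbered 1, and 3 to 5 for CC-NfL without 1 library.

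Map neighbours, in percentage points, moved as follows. MHC2_low neighbours differed by 0.374 (FL-NfL against Vehicle) and 0.905 (FL-NfL against CC-NfL) with neighbours from Vehicle libraries only, and by -4.91 to 1.21 and -3.05 to 2.47 without 1 library. Activated neighbours differed by 0.171 (FL-NfL against Vehicle, 10 neighbours) and -0.0483 (FL-NfL against CC-NfL, Vehicle neighbours only), and without 1 library by -0.540 to 0.508 for FL-NfL and -0.565 to 0.238 for both against Vehicle. MHC2_high neighbours differed without 1 library by -0.802 to 1.06 (FL-NfL), -0.359 to 2.61 (CC-NfL) and -0.298 to 1.47 (both) against Vehicle, and by -2.86 to 0.103 for FL-NfL against CC-NfL.

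Ratios that turned, without the libraries numbered 1, were VLMC (-0.57) and Reelin neurons (-0.43) after FL-NfL, VECA (-0.41) and microglia (0.0224) after CC-NfL, MHC2_high_2 (0.23) and VLMC (-0.26) for FL-NfL against CC-NfL, and VECA (-0.26) and MHC2_high_1 (-0.0186) for both. In b1 alone MHC2_high_1 was -0.36 after CC-NfL and -0.95 for both, and microglia -0.18 for both. With the block, microglia were -0.0359 and MHC2_high_1 -0.14 for both. Without 1 library the ranges were -1.25 to 0.48 (MHC2_high_1), -0.15 to 2.58 (Reelin neurons) and -0.25 to 2.63 (VLMC) after FL-NfL, -0.35 to 1.13 (VECA) after CC-NfL, -0.68 to 0.10 (MHC2_high_2) and -0.0132 to 3.09 (VLMC) for FL-NfL against CC-NfL, and -0.51 to 0.80 (MHC2_high_1), -0.0433 to 0.28 (microglia) and -0.0307 to 1.45 (VECA) for both. The cause was not tested in any of these. Depth limits every value: 18 to 70 MHC2_low cells per library.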
